A study of Capra hircus with 20 samples.

Results

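The comparison concerns the hypothalamus of newborn and 120-day-old Jining grey goats, which mature sexually at an early age. It used 10 of the 20 small RNA libraries of the study: all 5 taken on day 1 after birth and all 5 taken on day 120. The other libraries came from days 60 and 180. Both ages were of the same breed, carried no engineered allele and received no treatment that the labels name; the animals differed in age. The design text calls the 5 libraries of an age biological replicates; the sex of the animals is not given in the labels. No label ties a library to a single named animal, so p-values measure the spread between these libraries, which may be technical. All miRNAs of the deposited table were considered, and the ages, not any measured value, define the comparison.

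A miRNA is cut from a hairpin precursor, whose left and right sides give the 5p arm and the 3p arm. The arm that is loaded into an Argonaute protein guides the repression of matching messenger RNAs, and the other arm is usually degraded, so its reads are fewer. The hypothalamus drives puberty through neurons that secrete gonadotropin-releasing hormone (GnRH), and in rodents miR-200 and miR-155 are known to act on the genes that control its production.

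Values are in RPM: every library was scaled to the same total of miRNA reads. The whole reads behind them were recovered from the table and came to between 4017937 and 8284437 per library on day 1, and to between 6253298 and 8324880 on day 120. With this depth 3 reads equal between 0.362 and 0.747 RPM on day 1 and between 0.360 and 0.480 RPM on day 120, a limit that covers counting error only. Of 683 miRNAs in the table, 407 carry a known name and 276 are numbered predictions, printed here as the table spells them. The test took the 414 miRNAs with 1 RPM or more in 5 or more of the 20 libraries, and left 269 untested.

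The labelled tissue was checked by marker miRNAs. The neural miRNA miR-9-5p was the most abundant, at 224857 ± 78261 RPM on day 1 and 195568 ± 24328 on day 120 (mean ± SD, n = 5 each, as in all such values here). The neuronal miR-124a stood at 968 ± 428 and 1189 ± 648 RPM. Of miRNAs transcribed from HOX clusters of the posterior body, miR-196a was at 0.208 and 0.212 RPM, under the 3-read limit. miR-10a-5p was at 67.4 ± 10.5 and 139 ± 67.0 RPM and miR-10b-5p at 70.6 ± 25.9 and 147 ± 58.8 RPM, so HOX-linked miRNAs were not absent. Replicate 2 of day 1 stood apart from the other libraries before any test. Its median rank correlation with the others was 0.891, against 0.921 to 0.934 for the rest of day 1 and 0.930 to 0.943 for day 120, and its depth was the lowest. Calls that were lost without it are named below with their values, and its effect on the list medians is given where it was large.

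From day 1 to day 120 a small set of miRNAs changed in the fit of all 4 ages. The 10 with a known name were miR-101-3p, miR-3955-3p, miR-374a-5p, miR-340-5p and let-7f-3p, which rose, and miR-449a-5p, miR-493-3p, miR-363-3p, miR-412-3p and miR-542-5p, which fell. The abundant neural miR-9-5p and miR-7-5p were not among them. In total 14 of 414 tested miRNAs passed an adjusted p of 0.05 (limma, Benjamini-Hochberg), or 3.38%, with 6 higher on day 120 and 8 lower. At an unadjusted p of 0.05 the count was 93, with 36 higher and 57 lower. For 30 miRNAs, or 7.25%, the libraries of the ages did not overlap, with 16 higher on day 120 (3.86%) and 14 lower (3.38%).

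The median change over all tested miRNAs was -0.12 on the log2 scale, with 181 above 0 and 233 below. The median was 0.11 when day 1 replicate 2 was left out. It was -0.0027 after quantile scaling, so changes of about this size cannot be assigned a direction. Without day 1 replicate 2 the count of calls was 8, all of them among the 14; the 6 lost were miR-340-5p, miR-374a-5p, miR-493-3p, miR-412-3p, miR-542-5p and novel_125. The share of calls that were higher on day 120 was 42.9%, and it depended on the scaling and the tool. It was 25.6% of 43 calls with edgeR and TMM scaling, 17.1% of 35 with edgeR on library size alone and 27.0% of 74 with DESeq2. None of the 14 calls was reversed in direction under these settings. In a fit of the day 1 and day 120 libraries alone, only miR-101-3p, miR-3955-3p, novel_1425 and novel_125 of the 14 kept their calls. The main fit shares 1 estimate of the spread between all ages, although the median SD was 0.941 on day 1 and 0.568 on day 120. The part of this in the lost calls was not tested.

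**Figure D1:**
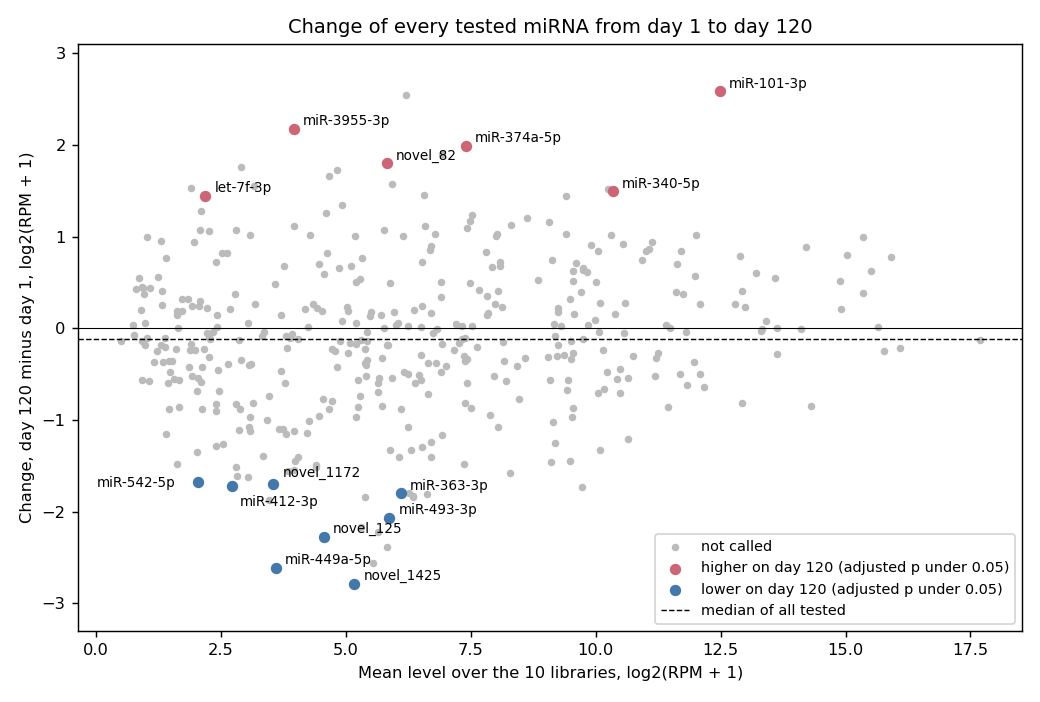
Each point is 1 of the 414 tested miRNAs, with its mean level over the 10 libraries in log2(RPM + 1) on the horizontal axis and its change from day 1 to day 120 on the vertical axis. The 6 red and 8 blue points passed an adjusted p of 0.05, miR-101-3p lies highest among them at 2.58, and the dashed line is the median of all tested at -0.12.

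miR-101-3p, which represses the histone methyltransferase EZH2, had the largest of the called rises. Its levels on day 1 were 1065, 1029, 3198, 2178 and 1117 RPM in replicates 1 to 5, and on day 120 they were 15677, 7862, 6140, 8168 and 10664 RPM. Every library of day 120 lay above every library of day 1. The log2 fold change was 2.58 (SE 0.46, adjusted p 0.00146 by limma), or 5.99-fold. It passed in each of the 10 fits that left out 1 library. The means on days 60 and 180 were 4720 ± 2879 and 11378 ± 7487 RPM. Day 120 and the other ages share the day 1 libraries as their reference, so such values are given side by side and not as separate support.

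miR-3955-3p rose at a far lower level. It stood at 5.94, 1.74, 5.05, 5.97 and 4.71 RPM on day 1 and at 24.0, 35.9, 25.3, 14.2 and 22.2 RPM on day 120, with no overlap. The log2 fold change was 2.17 (SE 0.47, adjusted p 0.0148 by limma), and it passed without any 1 of the libraries. RefSeq's goat annotation (assembly ARS1.2) places the MIR3955 gene between MIR136 and MIR379, in the imprinted miRNA run between DLK1 and DIO3 where MIR493 and MIR412 also lie. The other arm, miR-3955-5p, was at 136 ± 101 RPM on day 1 and 105 ± 39.4 on day 120 (log2 fold change -0.18, adjusted p 0.892).

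miR-340-5p, whose gene lies inside RNF130 in the RefSeq annotation, rose from 682 ± 275 to 1912 ± 776 RPM. Its day 1 libraries held 628, 369, 1095, 783 and 537 RPM, and its day 120 libraries held 3146, 1159, 1686, 1443 and 2126. The lowest day 120 value lay just above the highest day 1 value. The log2 fold change was 1.49 (SE 0.42, adjusted p 0.0451 by limma). The call was near the threshold: it was lost without day 1 replicate 1, 2 or 5 or day 120 replicate 1, 3, 4 or 5, with adjusted p of 0.0519 to 0.128. It was also lost with a pseudocount of 0.1, without a filter and in a fit of the day 1 and day 120 libraries alone (adjusted p 0.0569 to 0.107). The 3p arm of the same hairpin was at 160 ± 70.4 and 159 ± 45.7 RPM (log2 fold change 0.03, adjusted p 0.984).

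miR-374a-5p, an X-linked miRNA whose gene neighbours MIR545 in the RefSeq annotation, rose to 256 ± 52.1 RPM from 78.7 ± 68.2. On day 1 it was at 62.7, 36.1, 198, 34.2 and 62.2 RPM, and on day 120 at 211, 224, 342, 238 and 265. Replicate 3 of day 1 came close to the day 120 range, and the groups did not overlap. The log2 fold change was 1.99 (SE 0.55, adjusted p 0.0434 by limma). This call held without day 1 replicate 3 or 5 and was lost without any 1 of the other 8 libraries, with adjusted p of 0.0585 to 0.128. edgeR on library size, a pseudocount of 0.1, no filter and the fit of these ages alone also ended it (adjusted p 0.0503 to 0.065). Its relative miR-374b-5p was at 444 ± 58.0 RPM on day 1 and 914 ± 187 on day 120 without overlap, and did not pass (log2 fold change 1.02, adjusted p 0.14).

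let-7f-3p, the passenger arm of an abundant let-7 hairpin, was called at a few RPM. It stood at 1.19, 1.74, 3.37, 0.975 and 0.241 RPM on day 1 and at 2.93, 5.77, 8.53, 7.36 and 3.49 on day 120. The value of day 1 replicate 5 lay under the 3-read limit of that library, 0.362 RPM. The groups overlapped, because day 1 replicate 3 exceeded day 120 replicate 1. The log2 fold change was 1.44 (SE 0.39, adjusted p 0.0354 by limma). It was lost without day 1 replicate 1 or 5 or day 120 replicate 2, 3 or 4, with adjusted p of 0.0616 to 0.11, and without a filter or with these ages alone (0.0828 to 0.118). Among the numbered predictions novel_82 rose to 85.5 ± 7.71 from 25.9 ± 11.6 RPM, by 1.80 on the log2 scale (SE 0.43, adjusted p 0.015 by limma), and its 5 libraries of day 120 lay between 80.6 and 98.9 RPM. In the fit of these ages alone its adjusted p was 0.065.

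miR-449a-5p showed the largest fall among the called miRNAs with a known name. miR-449a is made in cells with many motile cilia, such as the ependyma that lines the ventricles, and lies inside the CDC20B gene beside MIR449B and MIR449C in the RefSeq annotation. Its levels were 8.45, 3.48, 31.6, 44.5 and 9.54 RPM on day 1. On day 120 it had no read in replicate 1 and stood at 0.48, 1.5, 10.9 and 0.748 RPM in replicates 2 to 5. Replicate 4 of day 120 overlapped with day 1, and the other 4 libraries of that age were below every day 1 library. It fell by 2.61 on the log2 scale (SE 0.59, adjusted p 0.015 by limma), and the call passed without any 1 of the libraries. It was lost with edgeR on library size, in a fit of the day 1 and day 120 libraries alone and with library weights (adjusted p 0.0526 to 0.0738). These are bulk tissue values, so fewer cells of a type and less RNA per cell cannot be told apart.

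The other 3 tested members of the multiciliated list did not pass. miR-449a-5p was thus the 1 call among 4, where 3.38% of all tested miRNAs were called. miR-34c-5p, which shares its seed with miR-449a, was at 292, 755, 1007, 4185 and 101 RPM on day 1 and at 104, 1662, 117, 135 and 82.2 RPM on day 120 (log2 fold change -1.74, adjusted p 0.262). Its highest day 120 value was in replicate 2, whereas miR-449a-5p peaked in replicate 4. miR-34b-3p peaked in the same replicate 2, at 842 RPM, against 16 to 74.4 RPM in the rest of day 120. The summed level of the list ran from 145 to 5128 RPM on day 1 (median 1171) and from 114 to 2547 on day 120 (median 180). All 4 tested members had a change below 0, with a median of -1.95 (-2.56 to -1.40 over the alternatives).

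miR-363-3p, which shares its seed with miR-92a and miR-25, fell to a narrow range. Its day 1 libraries held 98.6, 139, 169, 45.7 and 85.1 RPM, and its day 120 libraries held 27.6, 30.6, 27.7, 27 and 24.7. The day 120 values spanned a few RPM and all lay under the lowest day 1 value. It fell by 1.80 on the log2 scale (SE 0.42, adjusted p 0.015 by limma), or 3.48-fold, and passed without any 1 of the libraries. In a fit of the day 1 and day 120 libraries alone the adjusted p was 0.065. Its seed partners were miR-92a-3p at 4414 ± 3135 and 3637 ± 2188 RPM (log2 fold change -0.36, adjusted p 0.819) and miR-25-3p at 2593 ± 679 and 3672 ± 1429 RPM (0.40, adjusted p 0.639). Over the miR-17-92 cluster and its paralogs, known for driving proliferation, 8 of 18 tested members lay above 0 and the median was -0.21. Over the 23 alternatives run the median went from -0.38 to 0.05, and it was -0.0027 without day 1 replicate 2. The median of all tested miRNAs also rose without that library, as given above. miR-363-3p was the 1 call among the 18, where 3.38% of all tested miRNAs were called.

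miR-493-3p and miR-412-3p come from the DLK1-DIO3 imprinted cluster, which is expressed from the maternal chromosome and is rich in brain miRNAs. miR-493-3p was at 56.1, 185, 114, 75.5 and 39.8 RPM on day 1 and at 31.5, 32.8, 7.93, 14.4 and 18.6 RPM on day 120, without overlap. It fell by 2.07 on the log2 scale (SE 0.52, adjusted p 0.0225 by limma). Leaving out day 1 replicate 2 gave -1.77 with an adjusted p of 0.0665, and the call was also lost without day 120 replicate 3 or 4 (adjusted p up to 0.101) and with these ages alone (0.066). miR-412-3p was at 6.33, 31.9, 4.49, 4.14 and 2.66 RPM on day 1, with replicate 2 far above the others. On day 120 its 5 libraries lay between 0.598 and 1.87 RPM. It fell by 1.72 on the log2 scale (SE 0.45, adjusted p 0.0294 by limma), a call lost without day 1 replicate 1 or 2 or day 120 replicate 1, 3 or 4 (adjusted p 0.0517 to 0.101), and with a pseudocount of 5 or these ages alone (up to 0.118).

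The abundant members of that cluster did not pass. miR-127-3p was at 6882 ± 3209 RPM on day 1 and 8594 ± 2358 on day 120 (log2 fold change 0.41, adjusted p 0.619), and miR-409-3p at 4103 ± 4693 and 1443 ± 568 RPM (-0.86, adjusted p 0.397). The list of that cluster leaves out miR-3955, miR-3958 and miR-3959, whose genes lie in the same run. The called rise of miR-3955-3p is therefore not counted in it. Of its 56 tested members 2 were called, both lower, where 3.38% of all tested miRNAs were called. Of these 56 members 17 lay above 0, or 30.4%, against 43.7% over all tested miRNAs. Their median was -0.31 and ran from -0.65, without day 1 replicate 5, to -0.13, without day 1 replicate 2. The median of all tested miRNAs was also higher without the latter library. Of the other arms of the called hairpins, miR-412-5p was at 835 ± 548 and 260 ± 94.8 RPM (-1.46, adjusted p 0.0859), a change close to that of miR-412-3p, and miR-493-5p at 124 ± 92.4 and 88.8 ± 51.8 RPM (-0.05, adjusted p 0.984).

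miR-542-5p lies in an X-linked cluster with miR-424 and miR-450, miRNAs known for restraining the cell cycle. It was at 2.11, 8.71, 12.8, 1.34 and 2.78 RPM on day 1 and between 0.12 and 1.05 RPM on day 120, near the 3-read limit. The groups did not overlap. It fell by 1.68 on the log2 scale (SE 0.45, adjusted p 0.0336 by limma), a scale that understates changes at such levels. The call was lost without day 1 replicate 2 or 3 or any 1 of the day 120 libraries (adjusted p 0.0532 to 0.127), and with a pseudocount of 0.1 or these ages alone (0.105 to 0.111). Its main arm miR-542-3p was at 252 ± 241 and 276 ± 136 RPM (log2 fold change 0.40, adjusted p 0.805). Of the cluster's 6 tested arms 2 lay above 0, with a median of -0.81 (-1.19 to -0.45 over the alternatives). miR-542-5p was the 1 call among the 6, where 3.38% of all tested miRNAs were called.

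The 3 numbered predictions that fell were called at low to moderate levels. novel_1425 went from 113, 65.2, 25.1, 71.2 and 38.9 RPM on day 1 to 5.87, 7.69, 8.98, 8.16 and 5.61 RPM on day 120. This was the smallest adjusted p of the comparison, at 0.00116 by limma, with a log2 fold change of -2.79 (SE 0.47), or 6.91-fold lower. novel_125 went from 38.6 ± 19.7 to 6.48 ± 1.79 RPM (log2 fold change -2.28, adjusted p 0.015), and the adjusted p was 0.0502 without day 1 replicate 2 and 0.0961 with a pseudocount of 0.1. novel_1172 went from 17.0 ± 8.37 to 4.36 ± 1.98 RPM (-1.70, adjusted p 0.015), and the adjusted p was 0.0568 without day 120 replicate 3 and 0.072 with these ages alone. Predictions may not be miRNAs, and the tool behind them is not given in the sources used here.

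**Figure D2:**
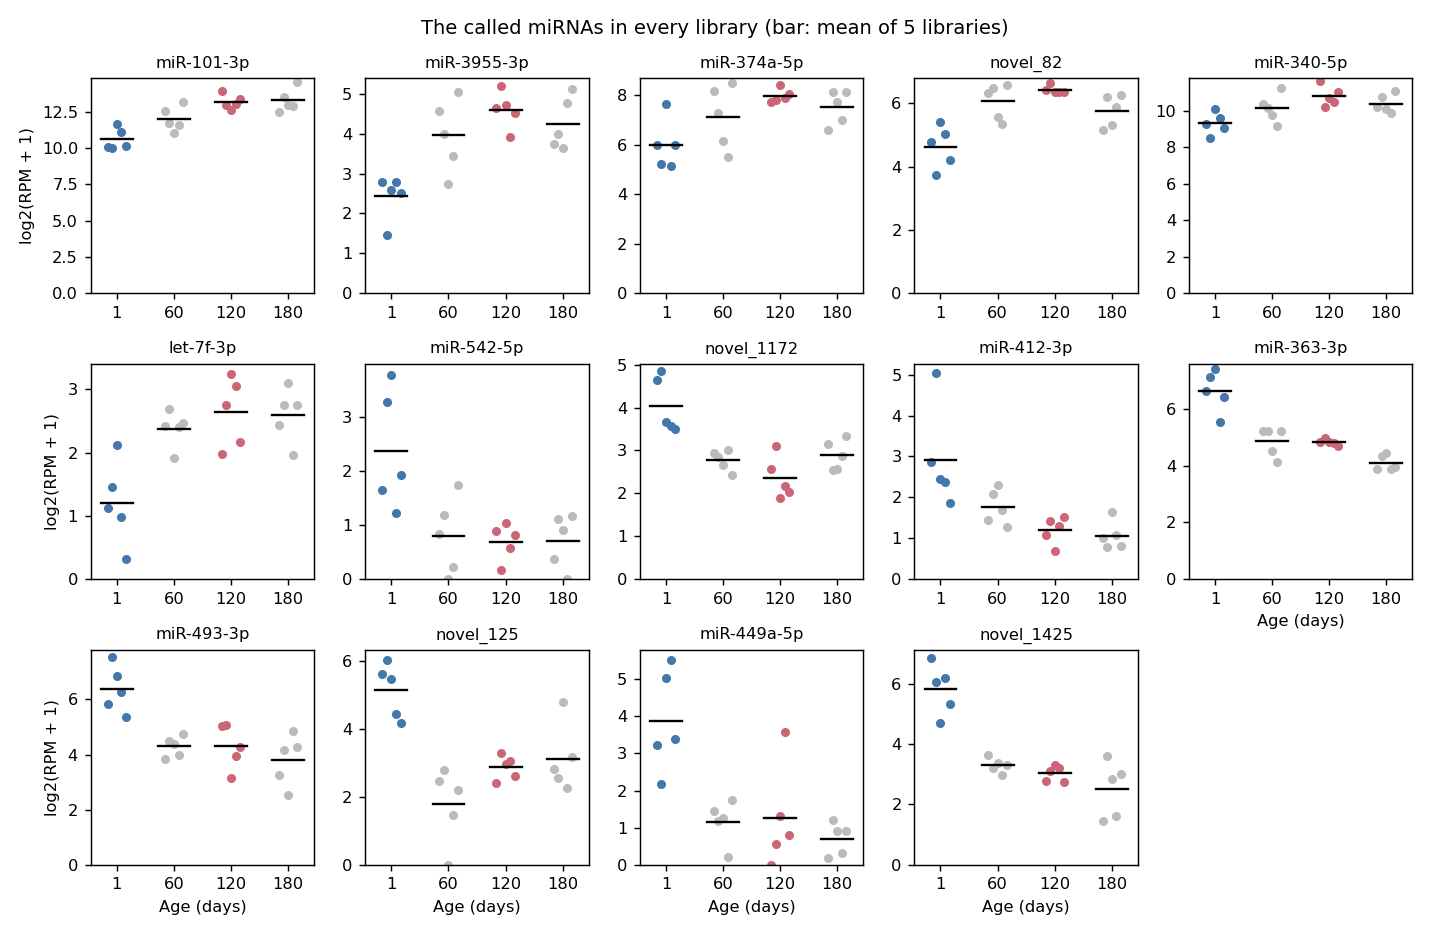
Each panel plots 1 of the 14 called miRNAs in log2(RPM + 1) against age in days, with 1 point per library, a bar at the mean of 5 and a vertical axis of its own. Day 1 is blue, day 120 red, and days 60 and 180 grey; miR-449a-5p and let-7f-3p are the 2 panels in which a day 120 library falls within the day 1 range.

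The called miRNAs were also read on days 60 and 180, against the same day 1 libraries. Of the 14 calls 6 also passed on day 60, where 16 of all 414 (3.86%) did. On day 180 the 14 miRNAs that passed (3.38%) held 10 of them. No miRNA passed between days 60 and 120 or between days 120 and 180. Values are given for some of the calls. miR-363-3p was at 29.7 ± 9.73 RPM on day 60, near its 27.5 ± 2.12 on day 120, and at 16.4 ± 3.42 on day 180. miR-449a-5p was at 1.37 ± 0.794 RPM on day 60 and 0.686 ± 0.482 on day 180. novel_125 was at 3.15 ± 2.32 and 9.87 ± 9.55 RPM at those ages. On day 60 miR-374a-5p was at 185 ± 139 RPM and miR-340-5p at 1268 ± 713 RPM.

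By the naming rule, a further 11 known miRNAs did not overlap between the ages and did not pass the adjusted threshold. Higher on day 120 in every library were miR-122, let-7a-3p, miR-335-5p and miR-374b-5p. miR-122, the main miRNA of hepatocytes, was at 91.6, 24.1, 17.5, 17.9 and 2.66 RPM on day 1 and between 102 and 121 RPM on day 120 (log2 fold change 2.54, SE 0.81, adjusted p 0.0709). Its mean was 635 RPM on day 60 and 109 RPM on day 180. miR-335-5p, whose gene lies inside the imprinted gene MEST, was at 53.4 ± 24.1 and 188 ± 49.9 RPM (1.90, adjusted p 0.0859). let-7a-3p was at 29.7 ± 11.8 and 89.3 ± 32.9 RPM (1.57, adjusted p 0.0614).

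The other 7 of the 11 were lower on day 120 in every library. miR-324-5p, which represses Hedgehog signalling genes, was at 24.5, 333, 126, 13 and 18.3 RPM on day 1 and between 3.87 and 11.8 RPM on day 120 (log2 fold change -2.39, adjusted p 0.0614). Its day 1 mean rested on replicates 2 and 3: the change was -1.70 (adjusted p 0.171) without the former and -2.05 (0.127) without the latter. miR-1271-5p, which shares the seed of miR-96, was at 1043 ± 375 and 396 ± 148 RPM (-1.45, adjusted p 0.0667). miR-99a-5p, a repressor of the kinase mTOR and the most abundant of the 7, was at 26227 ± 11309 and 14510 ± 4979 RPM (-0.85, adjusted p 0.19). miR-1307-5p, miR-502b-3p, miR-99a-3p and miR-301a-5p had changes of -1.88, -1.40, -1.54 and -1.10, with adjusted p of 0.0518 to 0.12.

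Strand use was compared by the log2 ratio of the 5p arm to the 3p arm, (RPM + 1) for each arm, in the 120 hairpins that had both arms tested. Library scaling enters both arms alike, so the ratio depends little on it. The ratio changed for 8 hairpins, or 6.67%: it moved toward the 5p arm for miR-340, miR-140 and miR-363, and toward the 3p arm for miR-27a, miR-877, miR-2483, miR-542 and miR-3955. All 8 had an adjusted p of 0.00977 (limma, Benjamini-Hochberg over the 120), and their day 1 and day 120 libraries did not overlap. The ages did not overlap in 13 of the 120 hairpins, or 10.8%, with 3 toward the 5p arm and 10 toward the 3p arm. Each of the 8 passed without any 1 of the 10 libraries. Over all 120 the median change was 0.11, with 67 toward the 5p arm and 53 toward the 3p arm. Both arms of a hairpin changed with the same sign in 66 of the 120.

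**Figure D3:**
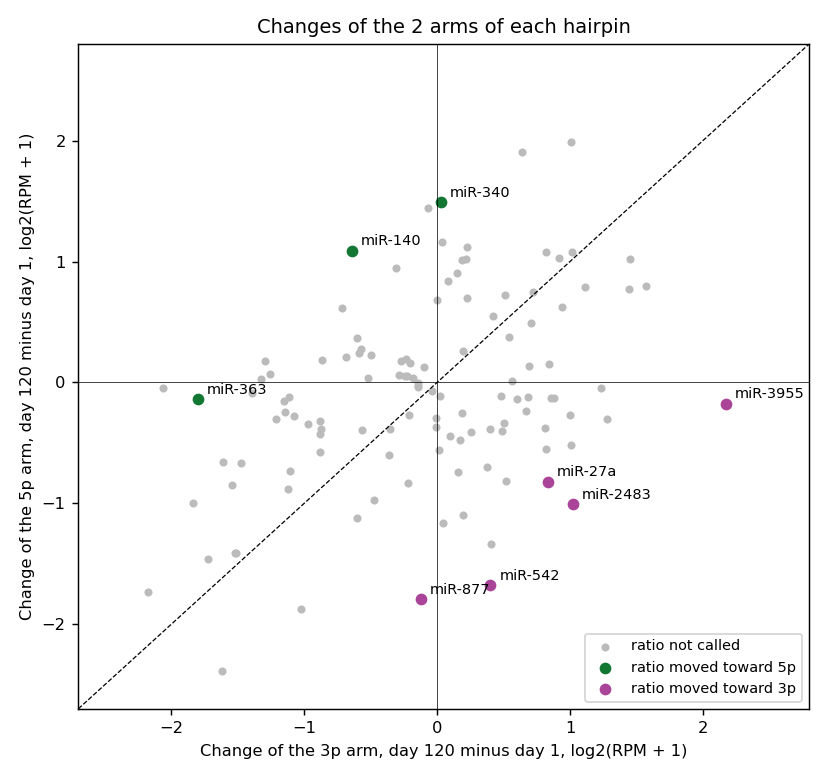
Each point is 1 of 120 hairpins, with the change of its 3p arm on the horizontal axis and of its 5p arm on the vertical axis, both as day 120 minus day 1 in log2(RPM + 1). On the dashed line the 2 arms change equally; the 3 green hairpins lie above it and the 5 purple ones below it.

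miR-340 had the tightest ratios of the called hairpins. The log2 ratio was 2.08, 1.93, 1.98, 2.25 and 2.19 in the day 1 libraries and 3.93, 3.66, 3.34, 3.37 and 3.47 in the day 120 libraries. It moved by 1.46 (SE 0.37) toward the 5p arm, and its means on days 60 and 180 were 3.11 and 3.39. The ratio of day 1 replicate 2, at 1.93, was not apart from the others, although its level of miR-340-5p was the lowest. The 5p arm is itself called, and the ratio uses the same libraries, so it is no separate evidence for the rise.

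miR-140, whose gene lies inside WWP2 and which is best known from cartilage, had arms that moved apart although neither was called alone. miR-140-5p was at 117 ± 76.2 RPM on day 1 and 225 ± 72.3 on day 120, and miR-140-3p at 5908 ± 3979 and 3296 ± 932 RPM. The log2 ratio was -5.30, -6.56, -4.71, -5.52 and -5.94 on day 1 and -4.21, -3.34, -3.36, -4.16 and -4.29 on day 120. The change was 1.73 (SE 0.40) toward the 5p arm. The 3p arm remained the more abundant in all 10 libraries.

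miR-27a, whose gene neighbours MIR23A in the RefSeq annotation, moved the other way. The 5p arm was at 10.3 ± 4.18 and 5.22 ± 1.76 RPM and the 3p arm, which is the guide, at 163 ± 53.3 and 280 ± 28.6 RPM. The log2 ratio was -4.25, -3.48, -3.92, -3.75 and -3.99 on day 1 and -4.78, -5.88, -5.58, -5.66 and -5.74 on day 120. The change was -1.65 (SE 0.42), toward the 3p arm. Neither arm was called alone.

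miR-2483, whose gene lies inside TENM1, was the called hairpin whose mean log2 ratio changed sign, as it did in 5 of all 120 hairpins. On day 120 the arms of miR-2483 were at similar levels, with ratios of either sign. Its 5p arm was at 27.5 ± 32.4 and 8.97 ± 3.81 RPM and its 3p arm at 4.83 ± 3.95 and 10.2 ± 5.95 RPM. The log2 ratio was 0.52, 4.18, 2.53, 1.51 and 0.78 on day 1 and lay between -0.51 and 0.33 on day 120, a change of -2.03 (SE 0.50). Replicate 2 of day 1 held the highest ratio, and the call passed without it. In a fit of the day 1 and day 120 libraries alone the adjusted p was 0.0775.

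miR-877, a mirtron, whose hairpin is a spliced intron and not cut by Drosha, went from a mean log2 ratio of 4.33 to 2.66, a change of -1.67 (SE 0.40). Its 5p arm was at 47.8, 468, 60.4, 58.4 and 22.5 RPM on day 1 and between 15.0 and 24.5 RPM on day 120, and its 3p arm was at a few RPM at both ages. The level in day 1 replicate 2 stood apart, and its ratio of 4.49 did not. miR-3955 went from 4.39 to 2.04, a change of -2.35 (SE 0.51), through the rise of its 3p arm. miR-542 went from -5.19 to -7.27, a change of -2.08 (SE 0.51), with an adjusted p of up to 0.155 under a pseudocount of 5 or in a fit of these ages alone. miR-363 went from -5.68 to -4.02, a change of 1.66 (SE 0.43), but its 5p arm was near 1 RPM and the adjusted p was 0.162 with a pseudocount of 0.1. Like miR-340, the hairpins miR-3955, miR-542 and miR-363 each hold an arm that was called alone. Those arms are miR-3955-3p, miR-542-5p and miR-363-3p, so these ratios are no separate evidence for their changes.

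**Figure D4:**
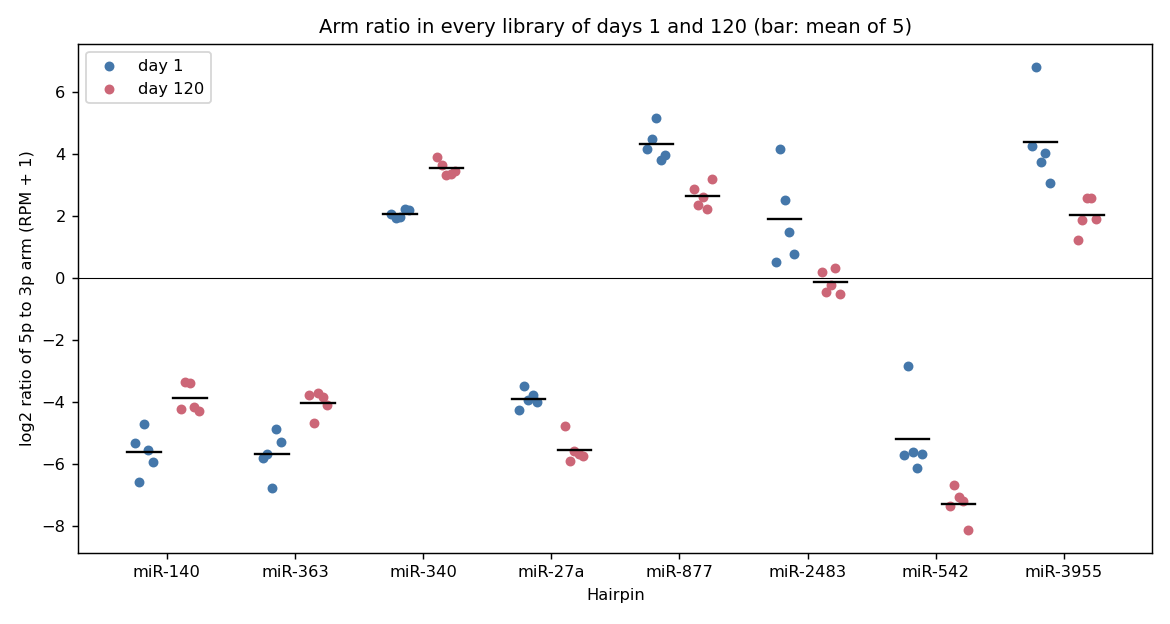
The log2 ratio of the 5p to the 3p arm, each as RPM + 1, is plotted for the 8 called hairpins, with day 1 in blue, day 120 in red, 1 point per library and a bar at the mean of 5. In each hairpin the 2 ages occupy separate ranges, and miR-340 is the tightest on day 1, between 1.93 and 2.25.

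Families and marker lists are described by counts and medians, beside 181 of 414 above 0 and a median of -0.12 for all tested miRNAs. Listed miRNAs with no entry under their listed name in the deposited data are not counted. A range after a list median is the lowest to the highest over the 23 alternatives, the fits without 1 library included. The median of all tested miRNAs moved as well, and lay above 0 without day 1 replicate 2. List medians without that library are therefore not to be read against -0.12. In the let-7 family, repressors of proliferation that accumulate as tissues mature, 15 of 17 tested arms lay above 0, with a median of 0.77 (0.55 to 0.84). The 8 tested 3p arms had a median of 0.71 and the 9 tested 5p arms one of 0.77. let-7f-3p was the 1 call among the 17, where 1.45% of all tested miRNAs were called higher. An unadjusted p under 0.05 was reached by 5 arms, where 8.70% of all tested miRNAs were higher at that level. Members of the family are nearly identical in sequence, so the split of reads between them is uncertain.

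The abundant let-7 guides did not pass. let-7g-5p was at 44924, 11594, 20401, 30848 and 39585 RPM on day 1 and at 38417, 58114, 63912, 57381 and 50006 RPM on day 120 (log2 fold change 1.00, SE 0.35, adjusted p 0.113). let-7f-5p was at 50582 ± 27535 and 72225 ± 8623 RPM (0.77, adjusted p 0.233). For both, day 1 replicate 2 held the lowest level of the 10 libraries, and without it the median of the list was 0.70. miR-98-5p and let-7i-3p were the members below 0, at -0.27 and -0.69.

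**Figure D5:**
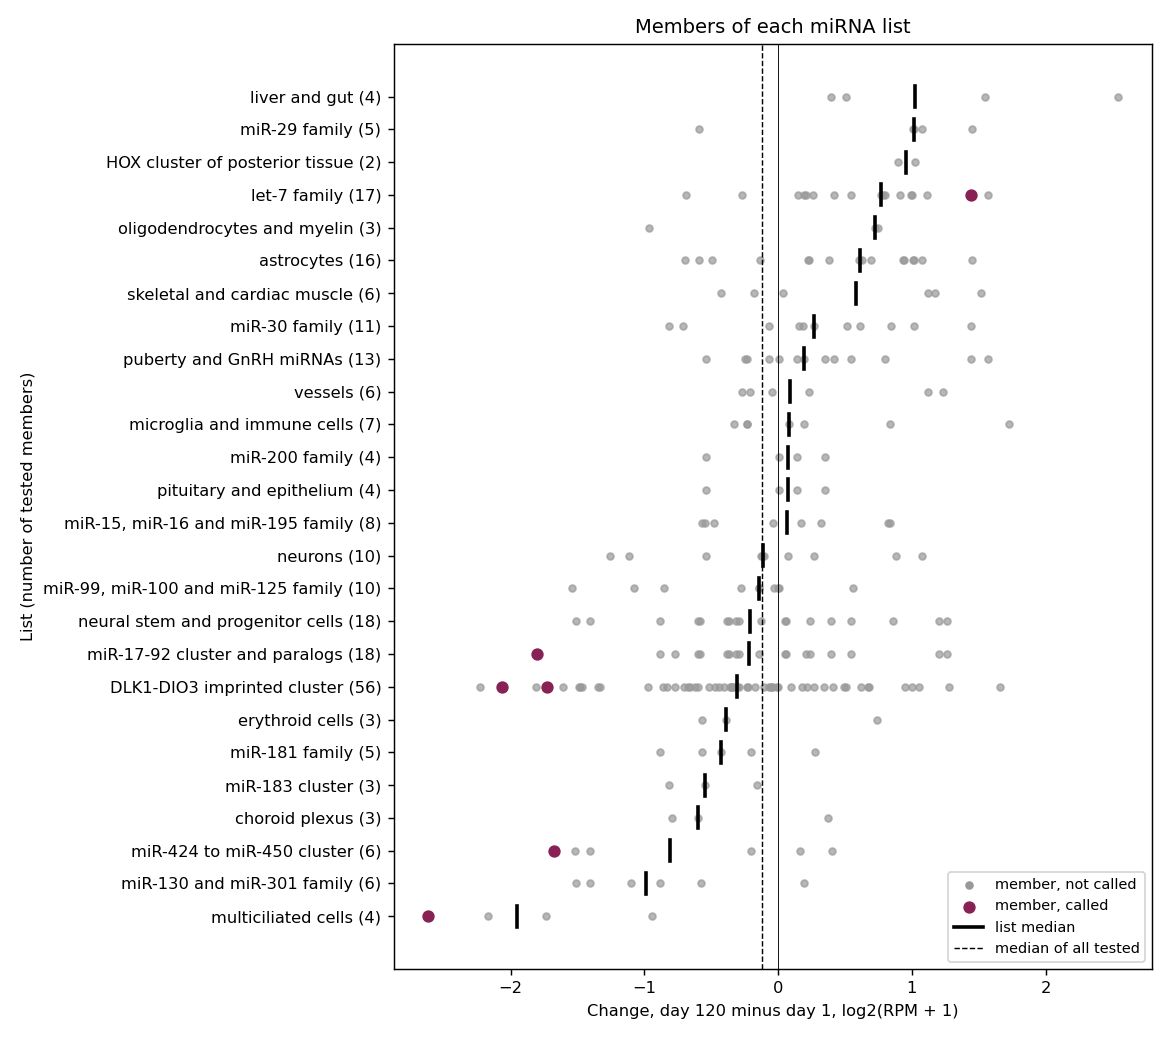
Each row is a list with its number of tested members, and each point is a member's change from day 1 to day 120 in log2(RPM + 1), with called members larger and coloured and a bar at the list median. The dashed line is the median of all tested at -0.12; list medians run from -1.95 for multiciliated cells to 1.03 for liver and gut.

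The miR-29 and miR-30 families lay mostly above 0, without a call, where 3.38% of all tested miRNAs were called. miR-29, which represses collagens and DNA methyltransferases, had 4 of 5 tested arms above 0 and a median of 1.02 (0.78 to 1.28). miR-29a-3p was at 876 ± 465 and 1653 ± 482 RPM (log2 fold change 1.01, adjusted p 0.19). miR-30 had 8 of 11 above 0 and a median of 0.27 (0.11 to 0.55), and its members were not uniform. miR-30c-5p was at 2717 ± 787 and 5514 ± 1663 RPM (1.02, adjusted p 0.12), and the more abundant miR-30a-5p at 10245 ± 5136 and 5387 ± 879 RPM (-0.81, adjusted p 0.218).

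The miR-130 and miR-301 family had 1 of 6 tested arms above 0 and a median of -0.99 (-1.31 to -0.74). miR-130b-5p was at 153 ± 86.3 and 54.8 ± 22.1 RPM (log2 fold change -1.41, adjusted p 0.12). miR-130b-3p was at 9.71 ± 7.65 and 2.15 ± 1.33 RPM (-1.51, adjusted p 0.0709). The miR-99, miR-100 and miR-125 family had 2 of 10 above 0, with a median of -0.14 (-0.56 to 0.17, the latter without day 1 replicate 2). The miR-181 family, in which miR-181a had no entry, had 1 of 5 above 0, with a median of -0.42 (-1.11 to 0.01, the latter without that library). The miR-15, miR-16 and miR-195 family had 4 of 8 above 0 and a median of 0.07 (-0.09 to 0.41). The miR-183 cluster had 0 of 3 above 0 and a median of -0.55 (-0.96 to 0.03), which was -0.11 without day 1 replicate 2 and 0.01 with edgeR and TMM scaling.

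Of miRNAs linked to puberty and GnRH, 9 of 13 tested lay above 0 and none passed, where 3.38% of all tested miRNAs did. miR-132, miR-212 and miR-375 of that list had no entry, so nothing is known of them here. The median of the list was 0.19, and it ran from 0.03 without day 120 replicate 5 to 0.63 without day 1 replicate 2. The median of all tested miRNAs was also higher without the latter library. miR-7-5p, abundant in neuroendocrine cells, ranged on day 1 from 11397 to 117711 RPM and on day 120 from 21006 to 74610 RPM (log2 fold change -0.25, adjusted p 0.892). miR-30b-5p, which acts on the puberty brake MKRN3 in rodents, was at 364 ± 176 and 986 ± 388 RPM (1.44, adjusted p 0.136). miR-155-5p was at 154 ± 49.6 and 131 ± 43.8 RPM (-0.23, adjusted p 0.838). miR-200b was at 237 ± 311 and 217 ± 240 RPM (0.35, adjusted p 0.86). The pituitary and epithelium list lacks miR-375 and miR-205, which had no entry, and its tested members are those of the miR-200 family. These 4 had a median of 0.07 and a mean of -0.01. The median ran from -0.63 without day 1 replicate 4 to 0.57 without day 1 replicate 2, and was -0.24 with edgeR on library size.

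Apart from the multiciliated list, marker lists of brain cell types held no call, where 3.38% of all tested miRNAs were called. At that share lists this short would hold few calls or none. Of the listed neuronal miRNAs, miR-132, miR-138, miR-212 and miR-488 had no entry, nor had miR-142 of the immune list. Neurons had 4 of 10 above 0 and a median of -0.11. It ran from -0.47 without day 120 replicate 1 to 0.19 with edgeR and TMM scaling, and was 0.17 with quantile scaling and 0.08 without day 1 replicate 2. miR-128-3p was at 13816 ± 10737 and 24099 ± 16228 RPM (log2 fold change 0.88, adjusted p 0.315) and miR-218 at 2012 ± 2069 and 1174 ± 1133 RPM (-0.54, adjusted p 0.699). Neural stem and progenitor cells had 8 of 18 above 0 and a median of -0.21 (-0.38 to 0.06), or -0.0049 without day 1 replicate 2. Astrocytes had 12 of 16 and 0.62 (0.41 to 0.76), oligodendrocytes and myelin 2 of 3 and 0.72 (0.25 to 1.12), and microglia and immune cells 4 of 7 and 0.08 (-0.16 to 0.39). The astrocyte list holds the miR-29 family, and the stem cell list shares most of its members with the miR-17-92 list. Among astrocyte miRNAs, miR-26a-5p was at 36836 ± 6833 and 56543 ± 8008 RPM without overlap (log2 fold change 0.63, adjusted p 0.233). The myelin-linked miR-338-5p was at 1362 ± 620 and 2550 ± 1560 RPM (0.75, adjusted p 0.514), and the oligodendrocyte miR-219 at 58.7 ± 98.5 and 12.6 ± 6.81 RPM (-0.97, adjusted p 0.519). Of the immune miRNAs, miR-146b-5p was at 1500 ± 1508 and 2598 ± 2608 RPM (0.84, adjusted p 0.47) and miR-150 at 477 ± 575 and 288 ± 142 RPM (-0.33, adjusted p 0.859).

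Lists for tissue that could enter the dissection also held no call, and are likewise short beside a share of 3.38% called over all tested miRNAs. The summed level of choroid plexus miRNAs ran from 1664 to 7221 RPM on day 1 (median 2483) and from 1392 to 5021 on day 120 (median 4020). Of its 3 tested members 1 lay above 0, miR-204-5p, the most abundant, at 0.37. The median change was -0.60 (-0.95 to 0.54), the value of miR-204-3p, or 0.19 without day 1 replicate 2. Erythroid miRNAs summed to 90.5 to 1552 RPM (median 264) and 236 to 1338 RPM (median 545). The most abundant, miR-451-5p, was at 505 ± 589 and 616 ± 416 RPM (log2 fold change 0.74, adjusted p 0.472 by limma). It was the 1 of 3 above 0. The median change was -0.39 (-0.68 to 0.74), the value of miR-144-5p, at 8.96 and 6.22 RPM. This median was 0.08 without day 1 replicate 2 and 0.61 without day 1 replicate 3. Vessel miRNAs had 3 of 6 above 0 and a median of 0.09 (-0.18 to 0.26), or -0.07 with edgeR and TMM scaling. Muscle miRNAs summed to 336 to 2668 and 1468 to 2406 RPM, with 4 of 6 above 0 and a median of 0.58 (0.28 to 1.14). Liver and gut miRNAs summed to 554 to 1714 and 1019 to 1500 RPM, with all 4 above 0 and a median of 1.03 (0.72 to 1.24). The HOX list had both tested members above 0, with a median of 0.96 (0.77 to 1.24); miR-10a-5p had a log2 fold change of 0.89 (adjusted p 0.315) and miR-10b-5p one of 1.02 (0.262). The part of these tissues in the changes reported above was not tested.

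The day 1 libraries were the more variable. The median SD of log2(RPM + 1) among the 5 libraries was 0.941 on day 1 and 0.568 on day 120, and it was larger on day 1 for 332 of 414 miRNAs. Without day 1 replicate 2 the median was 0.786, and the SD on day 1 was larger for 292. The 10 most abundant miRNAs took 63.0% ± 14 of the reads on day 1 and 65.6% ± 2.84 on day 120.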

How the data were processed

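Small RNA was sequenced from hypothalamus, 5 libraries per age. The authors deposited 1 table in RPM, per the file headers under the name TPM; low values were whole multiples of a step per library, and dividing by it gave whole reads for 100% of values below 1000 reads, within 0.1 read. The submitters' processing notes name Bowtie; neither its version nor the genome build, counter or catalogue is given in the sources used here. Within each age no pair of libraries agreed within sampling noise (smallest chi-square per degree of freedom 392 over 40 pairs).

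Changes were tested with limma 3.58.1 (R 4.3.3; eBayes with a variance trend, two-sided) on log2(RPM + 1), with all 20 libraries and 4 age means in 1 fit and Benjamini-Hochberg adjustment at 0.05 over all 414 tested. Arm ratios were fitted likewise over 120 hairpins. The fit had 16 residual and 9.51 prior degrees of freedom and a median SE of 0.518. The recovered reads were also tested with edgeR 4.0.16 and DESeq2 1.42.0 as alternatives. The other alternatives were other scalings, pseudocounts, filters and weights, no variance trend, the compared ages alone, a block for the replicate number, and each library left out in turn. The tests were tried on simulated data.

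Named were called miRNAs at 10 RPM or more in either mean, up to 12 per direction. Where a direction had fewer than 10, those without overlap and with an unadjusted p under 0.05 were added as values that did not pass. The 10 most abundant miRNAs, up to 4 members of each of 26 lists, called list members and up to 6 called hairpins per direction were also eligible. Partner arms, the 4 called predictions, seed partners, miR-196a and the members below 0 of the let-7 list were added after their values were seen. The comparison and the lists were chosen with earlier results of these data known. Gene places come from RefSeq's ARS1.2 annotation, in which 220 of 237 tested hairpin names matched. miRNA sequences were not used here.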

Additional observations from a re-analysis of the deposited data

Results flagged for a closer look

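In 9 of the 66 groups of 5 libraries examined, 1 library lay far from the other 4, and 4 of the 9 were day 1 replicate 2. Levels were compared here in RPM, not on the log2 scale of the tests. The cutoff flags about 1 in 20 groups of normally distributed values. RPM values are skewed, so whether 9 of 66 exceeds chance cannot be read from it. In that replicate miR-99a-5p was at 46336 RPM (others 19324 to 22339), miR-412-3p at 31.9 RPM (2.66 to 6.33), miR-502b-3p at 31.4 RPM (7.19 to 12.1) and the miR-542 log2 arm ratio at -2.84 (-6.11 to -5.62). On day 1 miR-374a-5p was at 198 RPM in replicate 3 (others 34.2 to 62.7) and miR-122 at 91.6 RPM in replicate 1 (2.66 to 24.1). On day 120 miR-449a-5p was at 10.9 RPM in replicate 4 (others 0 to 1.5), novel_82 at 98.9 RPM in replicate 2 (80.6 to 85.2) and the miR-27a log2 arm ratio at -4.78 in replicate 1 (-5.88 to -5.58).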

How the results depend on the processing

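No called miRNA or arm ratio changed direction under any alternative run. The 14 calls (6 higher, 8 lower) became 43 (11 and 32) with edgeR and TMM scaling, 35 (6 and 29) with edgeR on library size, 74 (20 and 54) with DESeq2, 36 (13 and 23) with median-of-ratios scaling, 39 (19 and 20) with quantile scaling, and 53 (25 and 28) with library weights. They became 4 (2 and 2) with the compared ages alone. Without a filter 3 were higher, and with a filter at 10 RPM 5 were lower. Leaving out 1 library gave 7 to 29 calls, with 3 to 7 higher and 4 to 23 lower: 8 without day 1 replicate 2, 25 without replicate 4, 29 without replicate 5, and 7 and 8 without day 120 replicates 3 and 4. The 8 arm-ratio calls (3 toward 5p, 5 toward 3p) became 4 with a filter at 10 RPM (2 toward 3p), 13 without a variance trend (9 toward 3p), 5 with the compared ages alone (3 toward 3p) and 37 with library weights (19 and 18). Leaving out 1 library gave 8 to 17, with 3 to 9 toward 5p and 5 to 8 toward 3p: 17 without day 1 replicate 2 and 13 without replicate 3 or 5. The replicate numbers are not known to pair animals; same-numbered libraries had correlations of -0.17 to 0.36, and not every library correlated best with its own number. With the replicate block 18 miRNAs (8 higher, 10 lower) and 9 arm ratios were called. The list medians of miR-130 and miR-301 (-1.28 with TMM, -0.74 with quantile scaling) and miR-181 (-0.83 with TMM) moved by more than the SD of the list median across the day 120 libraries. That age was the less variable. So did erythroid cells (0.74) and muscle (1.14) with the filter at 10 RPM. Choroid plexus (0.54 with library weights) and miR-99, miR-100 and miR-125 (-0.56 with edgeR on library size) did likewise. The cause of these differences was not tested. Depth limits values under about 0.75 RPM, as for miR-542-5p, the 5p arm of miR-363 and let-7f-3p in day 1 replicate 5.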

Other observations

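A further 5 hairpins had arm ratios that narrowly missed the threshold, each with an adjusted p of 0.0513 (limma). miR-127, the leading miRNA of the DLK1-DIO3 cluster, had a change of -1.74 toward the 3p arm: its 5p arm was at 121 ± 111 RPM on day 1 and 34.7 ± 11.6 on day 120, and its guide miR-127-3p at 6882 ± 3209 and 8594 ± 2358 RPM. miR-301a, miR-98 and miR-15b had changes of -1.29, -1.27 and -1.37, toward the 3p arm, and miR-30f one of 1.33, toward the 5p arm. These hairpins were chosen after their values were seen and did not pass. miR-656, the last miRNA of that cluster and likewise chosen after its values were seen, had a change above 0, at 11 ± 6.26 RPM on day 1 and 37.7 ± 23.8 on day 120 (log2 fold change 1.66, adjusted p 0.114).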
